A study of Mus musculus with 30 samples.

Results

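The TGF-beta and BMP signalling genes described here are 40 genes that encode ligands of the TGF-beta family, their receptors, their secreted antagonists and latency proteins, the Smad proteins and 5 target genes. They were listed by symbol, for their roles in the pathway, out of 23109 genes in the tables. Of the 40, 36 reached 1 RPKM (reads per kilobase of transcript, scaled to library size) in at least 2 of the 8 libraries and entered the statistical model. Bmp2, Bmp7 and Nog never reached 1 RPKM, and Bmpr1b did so in 1 library.

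All libraries came from brown preadipocytes, the precursors of fat cells. Newborn pups of strain C57BL/6J gave the cells, from interscapular brown fat. In these mice both copies of the glucocorticoid receptor gene, Nr3c1, carry loxP sites (GR flox/flox), and all cells were immortalised with SV40 T antigen. Cells received either a control retrovirus (Vec, receptor gene intact) or a retrovirus carrying Cre recombinase (Cre, receptor gene deleted), so that Vec and Cre cells share the floxed allele and the T antigen. The cells were plated 4 days before induction and, at confluence, were given a mix of inducers: 0.5 mM IBMX, which blocks the breakdown of cAMP, dexamethasone at 2 µg/ml, which binds the glucocorticoid receptor, 0.125 mM indomethacin, 1 nM of the thyroid hormone T3, and insulin at 0.02 µM. RNA was taken before induction (D0), at 4 hours (4h), on day 2 (D2) and on day 7 (D7). Each genotype and time is represented by 1 library, so n = 1 stands behind every value, and whether other cell pools or clones would give the same values cannot be told from these libraries. The labels state the inducers as applied for 4 hours, with the later medium not given in the sources used here.

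TGF-beta family ligands bind pairs of type I and type II receptor kinases, which phosphorylate receptor Smads. TGF-betas and activins act through Smad2 and Smad3, BMPs act through Smad1 and Smad5, and both branches use Smad4 to reach DNA. Smad6, Smad7 and secreted antagonists hold the signal back. TGF-beta is known as an inhibitor of fat cell formation, and BMPs are known to promote commitment of precursors to white and brown fat.

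Library totals ran from 7.7 M reads in Cre 4h to 28.9 M in Vec D2, and 11471 to 12176 genes reached 1 RPKM. Nr3c1 stood at 24.3 RPKM in Vec and 4.81 in Cre at D0, 12.9 and 4.04 at 4h, 21.3 and 8.07 at D2, and 32.1 and 6.67 at D7, which follows the labels at every time. The summed RPKM of 8 adipocyte markers went from 48.7 (Vec) and 51.0 (Cre) at D0 to 2415 and 2158 at D2 and to 4828 and 1744 at D7. The sum of 8 preadipocyte and fibroblast markers was 2916 and 3071 at D0, 623 and 1361 at D2, and 1704 and 3063 at D7. The sum of 8 brown adipocyte markers was 9.69 in Vec and 9.96 in Cre at D0, and 78.0 and 55.1 at D7. Cox8b made up much of the D7 sum, with 49.7 and 41.2 RPKM, and Cidea reached 7.36 and 1.29. Of the same list, Ucp1 and Dio2, which define active brown fat cells, did not reach 1 RPKM in any library. The sum of 6 nerve and Schwann markers lay between 2.82 and 21.7. All 6 epithelial markers stayed under 1 RPKM, and the endothelial and the macrophage and leukocyte sums did not exceed 3.25 and 3.09.

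The levels of the 40 genes at D0 covered a wide range and were close in Vec and Cre. Fstl1, a secreted follistatin-like glycoprotein, was the most abundant of them in every library, between 216 and 863 RPKM. The type I BMP receptor Bmpr1a (18.3 to 24.4 RPKM), the type II receptor Bmpr2 (15.5 to 22.3), the activin type II receptor Acvr2a (6.08 to 9.12) and the shared Smad4 (22.3 to 31.2) moved least, and the highest value of Bmpr1a was 1.34 times its lowest. Ltbp2 (1.69 to 50.3 RPKM), Grem1 (3.70 to 94.4) and Inhba (4.41 to 71.5) had much wider ranges. In 17 of the 40 genes the lowest value lay in Vec D2 alone. The share of all genes with their lowest value in Vec D2 was not computed, so this count cannot be read as a trait of these genes.

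**Figure D1:**
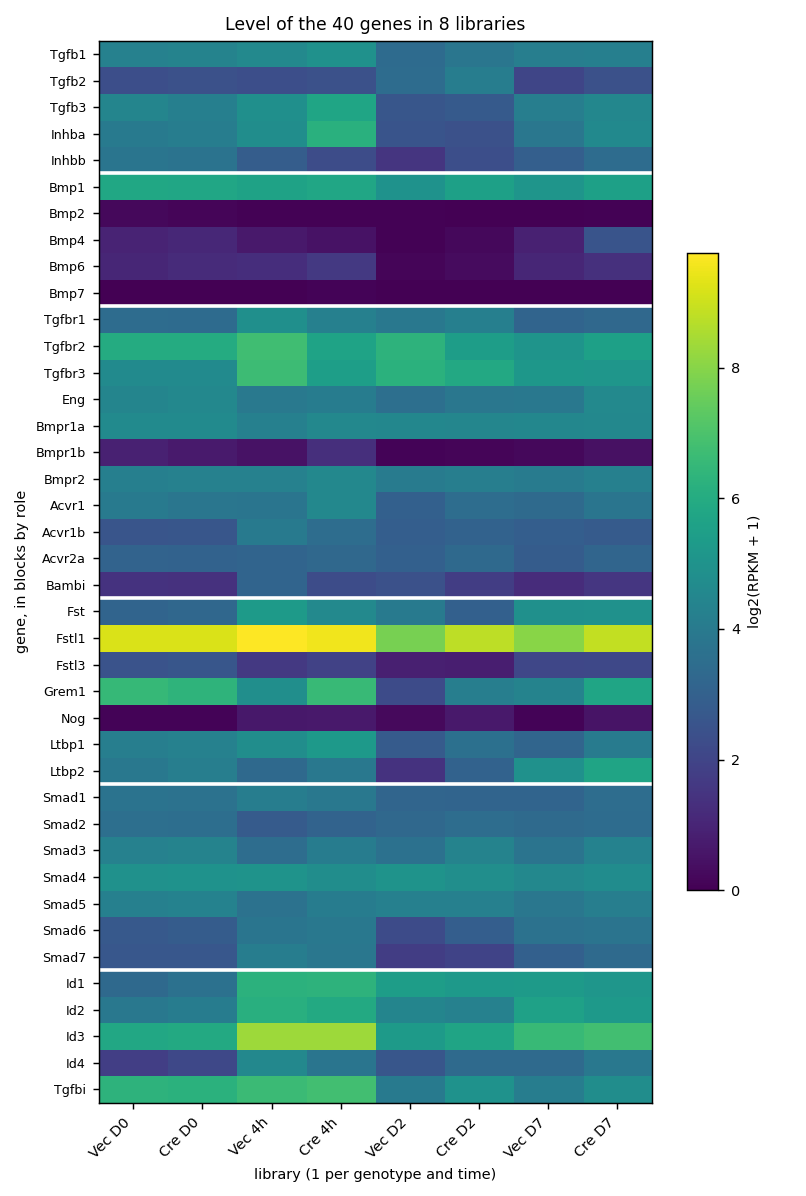
Level of each of the 40 genes (rows, in blocks by role) in each of the 8 libraries (columns), as log2(RPKM + 1) on a colour scale that starts at 0. Fstl1 is the brightest row, Bmp2, Bmp7 and Nog are dark in every library, and many ligand and antagonist rows are darkest in Vec D2.

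At 4h the 4 Id genes, the inhibitory Smads Smad6 and Smad7, and several ligands and receptors rose in both genotypes. Of the 36 genes fitted, 15 rose and 2 fell against D0 (edgeR quasi-likelihood test over both genotypes, adjusted p under 0.05), while of all 12581 genes 25.3% passed, 12.2% higher and 13.1% lower. The median fitted change of the 36 was 0.50 on the log2 scale, against 0.00 over all genes. At D2 the picture was turned over: 3 genes had risen and 15 had fallen against D0, with a median of -0.38 (all genes 0.02, of which 38.7% passed, 17.7% higher and 21% lower). By D7, 6 genes stood higher and 1 lower than at D0, with a median of -0.03 (all genes 0.01, of which 8.09% passed, 5.68% higher and 2.42% lower). From D2 to D7, 15 of the 36 rose and 1 fell, with a median of 0.39 (all genes 0.04, of which 24.3% passed, 15.4% higher and 8.93% lower). In these bulk samples fewer cells of a type and less RNA per cell cannot be told apart.

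The error of this test is the departure of the libraries from additive effects of time and genotype, so its p-values describe the spread over these 8 libraries and not that between independent cultures. The 3 comparisons with D0 share the same D0 libraries. Leaving out 1 library of a compared time leaves 1 library there. In each such fit given below, fewer of all genes passed too, except at D7 without Cre D7. A fall in the count is therefore not read here as a trait of these genes. Single libraries carried many calls: at 4h the count of 17 genes became 0 when Vec D0 was left out, 3 when Vec 4h was, 5 when Cre D0 was and 11 when Cre 4h was. At D2 the 18 became 6 without Vec D0, 8 without Vec D2 and 12 with Cre D2 left out. At D7 the 7 became 0 without Vec D0, 1 without Vec D7, 2 without Cre D0 and 3 without Cre D7. From D2 to D7 the 16 became 7 without Vec D2 and 10 without Cre D7.

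**Figure D2:**
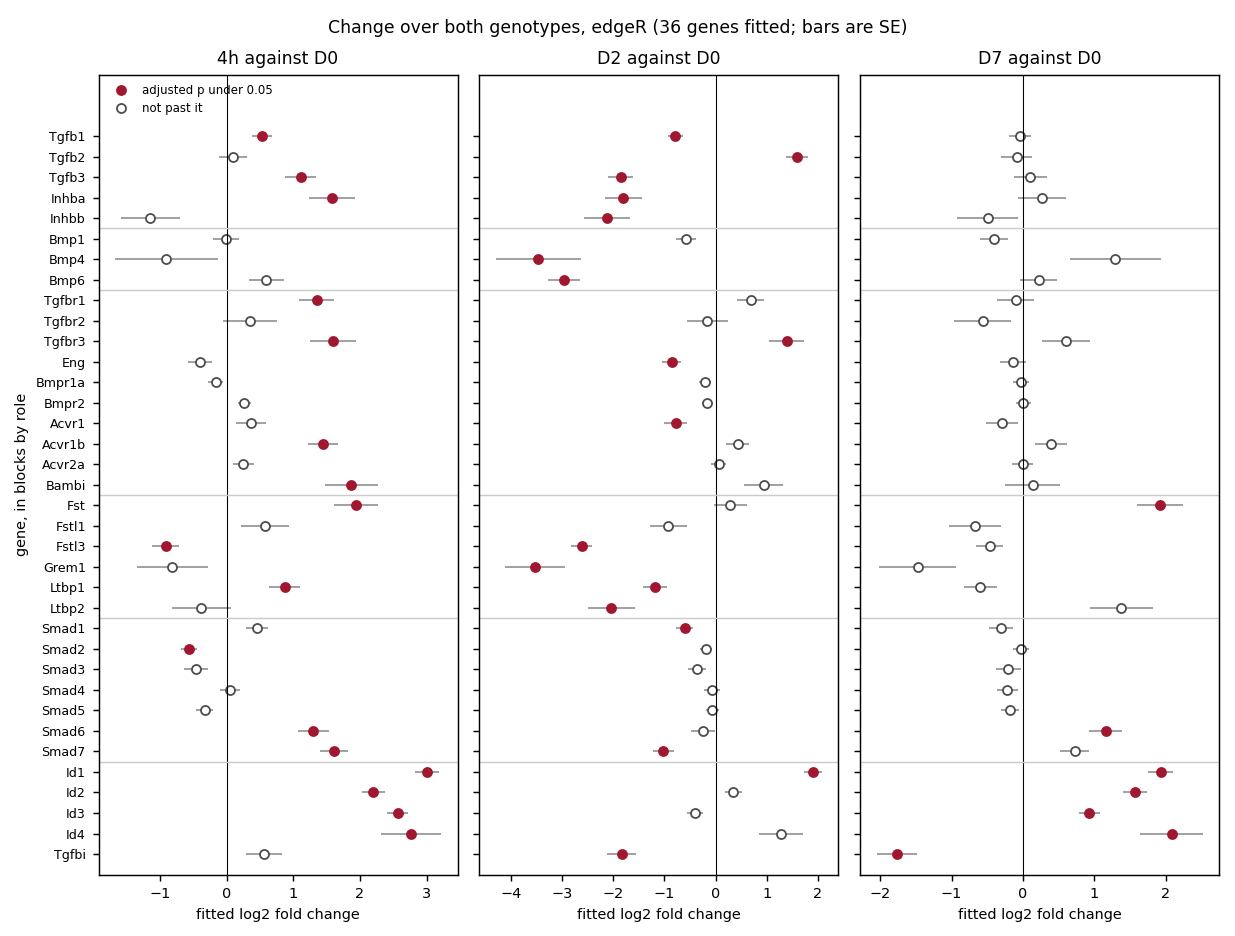
Fitted log2 fold change (horizontal axis) of the 36 genes (rows, in blocks by role) at 4h, D2 and D7 against D0, over both genotypes. Bars are standard errors and filled points passed an edgeR adjusted p of 0.05: most filled points lie right of 0 at 4h and left of 0 at D2, and at D7 the filled points are 4 Id genes, Fst, Smad6 and Tgfbi.

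Among the TGF-beta and activin ligands, 3 of 5 rose at 4h, and 4 of 5 fell and 1 rose at D2. Tgfb1, the TGF-beta best known from fibrosis, was at 18.6 RPKM in Vec and 19.8 in Cre at D0. It was at 23.1 and 29.2 at 4h, 9.497 and 13.3 at D2, and 17.0 and 17.7 at D7. Its lowest values were thus the D2 pair, and the D7 pair lay just under the D0 pair. It rose by 0.53 ± 0.15 (SE, log2) at 4h (edgeR adjusted p = 0.0491) and fell by 0.79 ± 0.15 at D2 (edgeR adjusted p = 0.0121). The 4h call was lost with no filter, with a filter at 5 RPKM and in limma. That call was also lost when any library of D0, 4h or D7 was left out.

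Tgfb3, a TGF-beta isoform, made the same turn with larger steps. Its RPKM was 20.5 (Vec) and 17.5 (Cre) at D0, 28.1 and 51.8 at 4h, 5.11 and 5.71 at D2, and 17.1 and 21.6 at D7. Both D2 libraries lay under all others, and Cre 4h stood above the rest. The fitted change was 1.11 ± 0.23 (SE, log2) at 4h and -1.86 ± 0.24 at D2 (edgeR adjusted p = 0.0235 and 0.00455).

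Inhba encodes the beta-A subunit that forms activin A. It stood at 15.4 RPKM in Vec and 16.7 in Cre at D0, and at 26.4 and 71.5 at 4h. At D2 it had 4.85 and 4.41 RPKM, and at D7 13.4 and 24.0. It rose at 4h by 1.58 ± 0.34 (SE, log2; edgeR adjusted p = 0.026) and had fallen by 1.80 ± 0.35 at D2 (edgeR adjusted p = 0.0132). The 4h value was 1.72 times the D0 value in Vec (95% counting interval 1.52 to 1.94) and 4.29 times in Cre (3.86 to 4.77). Inhbb, the beta-B subunit of activin B, gave 12.9 and 12.2 RPKM at D0, 6.34 and 3.87 at 4h, 1.85 and 4.14 at D2, and 6.81 and 10.0 at D7. Both D0 libraries were above all others. It fell at D2 by 2.13 ± 0.45 (edgeR adjusted p = 0.0163), and its 4h change of -1.15 ± 0.44 did not pass (edgeR adjusted p = 0.106).

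Tgfb2, the third TGF-beta, went the other way from its relatives. It lay at 4.13 RPKM in Vec and 4.33 in Cre at D0, 4.02 and 4.39 at 4h, 9.91 and 16.5 at D2, and 3.11 and 4.42 at D7. The D2 libraries were the only high ones, and the other 6 stayed between 3.11 and 4.42. Its rise at D2 was 1.58 ± 0.21 (SE, log2; edgeR adjusted p = 0.00489), and it fell by 1.67 ± 0.21 from D2 to D7 (edgeR adjusted p = 0.00753). Both calls held without any 1 of the 8 libraries.

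BMP ligand transcripts were scarce. Bmp2 reached at most 0.152 RPKM (9 reads) and Bmp7, a BMP known for promoting brown fat, at most 0.066 RPKM (1 read). Bmp4, which commits precursors to the fat lineage, was at 0.98 RPKM in Vec and 1.10 in Cre at D0, 0.57 and 0.39 at 4h, 0.05 and 0.15 at D2, and 0.86 and 4.83 at D7. Cre D7, with 238 reads, stood apart from the other 7 libraries, which had 3 to 53 reads each. Bmp4 entered the model only through its 2 highest libraries, Cre D0 and Cre D7. It was called lower at D2 than at D0 and higher at D7 than at D2. These calls, which the counts over the 36 genes include, are therefore no support for a change, and Bmp4 is given as levels only. The call at D2 was lost in limma and without Vec D0, Vec D2 or Cre D2. That from D2 to D7 was lost in limma on log2(RPKM + 5) and without Vec D2 or Cre D2, and Cre D7 was 1 of the 2 libraries through which the gene entered the model.

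Bmp6, another BMP ligand, held 1.09 and 1.33 RPKM at D0, 1.42 and 2.05 at 4h, 0.10 and 0.22 at D2, and 1.09 and 1.56 at D7 in Vec and Cre. The D2 pair, with 7 and 14 reads, lay under all other libraries. It fell at D2 by 2.96 ± 0.31 (SE, log2; edgeR adjusted p = 0.00328) and rose from D2 to D7 by 3.18 ± 0.31 (edgeR adjusted p = 0.005). Bmp1 is a metalloproteinase that trims procollagen and not a BMP ligand. It was abundant, from 30.1 RPKM (Vec D2) to 55.5 (Vec D0), and none of its changes passed. The transcript that stood for Bmp1 carries a non-coding RefSeq accession.

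Receptors moved as a mixed group, with 4 of 10 fitted genes rising at 4h and 1 rising and 2 falling at D2. The type I TGF-beta receptor Tgfbr1 was at 9.87 RPKM in Vec and 9.53 in Cre at D0. It was at 27.9 and 18.0 at 4h, 14.1 and 17.4 at D2, and 7.87 and 8.94 at D7. The 4h values were the highest in each genotype. Its rise at 4h was 1.35 ± 0.26 (SE, log2; edgeR adjusted p = 0.0203). The activin type I receptor Acvr1b, at 5.01 and 5.10 RPKM at D0, reached 15.4 in Vec and 10.3 in Cre at 4h and lay between 5.99 and 7.34 at D2 and D7. It rose at 4h by 1.44 ± 0.23 (edgeR adjusted p = 0.0131).

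Tgfbr3, or betaglycan, is a co-receptor that presents TGF-beta to the type II receptor. It held 24.2 and 24.5 RPKM at D0, 101 in Vec and 42.7 in Cre at 4h, 73.7 and 58.5 at D2, and 35.1 and 33.9 at D7. All libraries after D0 stood above both D0 libraries, and Vec 4h was the highest. It rose by 1.59 ± 0.35 (SE, log2) at 4h and by 1.39 ± 0.34 at D2 (edgeR adjusted p = 0.026 and 0.025). Bambi, a decoy receptor without a kinase, went from 1.72 and 1.61 RPKM at D0 to 7.88 and 3.84 at 4h, 4.34 and 2.41 at D2, and 1.36 and 1.94 at D7. Its rise at 4h was 1.87 ± 0.39 (edgeR adjusted p = 0.0237).

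Tgfbr2, the type II TGF-beta receptor, showed no common course. Vec cells went from 63.8 RPKM at D0 to 107 at 4h, 78.5 at D2 and 32.5 at D7, whereas Cre cells went from 63.0 to 49.7, 42.1 and 45.9. Relative to D0, the Vec libraries at 4h and D2 were higher and all later Cre libraries lower. No change over both genotypes passed the test (4h, edgeR adjusted p = 0.554; D2, 0.767; D7, 0.389). Eng, the co-receptor endoglin, fell at D2 by 0.86 ± 0.18 (SE, log2; edgeR adjusted p = 0.0171), from 20.9 and 22.2 RPKM at D0 to 10.7 in Vec and 13.8 in Cre. The BMP type I receptor Acvr1 fell at D2 by 0.78 ± 0.22 (edgeR adjusted p = 0.0393), from 14.9 and 13.2 RPKM to 6.89 and 10.3. The Acvr1 call was lost in limma, without Vec D0, and when any library of D2 or D7 was left out. Bmpr1b, a type I BMP receptor, was highest at 4h in Cre (1.46 RPKM, 60 reads) and otherwise between 0.0779 and 0.853 RPKM.

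Secreted antagonists and latency proteins gave 4 falls among 6 fitted genes at D2, and 2 rises and 1 fall at 4h. Fst, follistatin, which binds and blocks activins, was at 7.87 RPKM in Vec and 8.54 in Cre at D0, 38.5 and 22.9 at 4h, 14.9 and 6.87 at D2, and 28.5 and 29.4 at D7. Both genotypes were thus high at 4h and again at D7. It rose by 1.95 ± 0.33 (SE, log2) at 4h and by 1.92 ± 0.33 at D7 (edgeR adjusted p = 0.0149 and 0.0307). Fstl3, a related activin antagonist, had 4.60 and 5.14 RPKM at D0, 2.09 and 2.79 at 4h, 0.83 and 0.77 at D2, and 3.27 and 3.29 at D7. It fell by 0.91 ± 0.20 at 4h and by 2.62 ± 0.20 at D2 (edgeR adjusted p = 0.0252 and 0.00216). These 2 activin antagonists moved in opposite directions at 4h.

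Grem1, or gremlin, binds and blocks BMPs. It held 90.6 RPKM in Vec and 81.0 in Cre at D0, 27.2 and 94.4 at 4h, 3.70 and 17.2 at D2, and 19.7 and 52.8 at D7. Vec cells were low from 4h on, while the Cre library at 4h was above its D0 value, and both genotypes were lowest at D2. The change at D2 was -3.52 ± 0.59 (SE, log2; edgeR adjusted p = 0.00838), the rise from D2 to D7 was 2.05 ± 0.55 (edgeR adjusted p = 0.0442; lost when any library of 4h, D2 or D7 was left out), and the 4h change did not pass (edgeR adjusted p = 0.297). Nog, noggin, also a BMP antagonist, had 3 reads in each D0 library and at most 30 reads (0.588 RPKM, Cre D2).

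Ltbp1, which tethers latent TGF-beta to the matrix, stood at 17.2 and 18.7 RPKM at D0, 26.5 and 36.3 at 4h, 5.97 and 11.0 at D2, and 7.96 and 15.5 at D7. Both genotypes peaked at 4h and were lowest at D2. It rose at 4h by 0.88 ± 0.23 (SE, log2; edgeR adjusted p = 0.0428) and had fallen at D2 by 1.18 ± 0.23 (edgeR adjusted p = 0.0138). Ltbp2, a matrix microfibril protein of the same family, was at 14.2 and 17.0 RPKM at D0, 9.10 and 14.1 at 4h, 1.69 and 7.46 at D2, and 29.3 and 50.3 at D7. Both D7 libraries were above all others. It fell at D2 by 2.04 ± 0.46 (edgeR adjusted p = 0.0198) and rose from D2 to D7 by 3.42 ± 0.48 (edgeR adjusted p = 0.00907). Fstl1 held 586 RPKM in both D0 libraries, 863 and 747 at 4h, 216 and 441 at D2, and 256 and 461 at D7. None of its changes with time passed the test.

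Among the Smads, the inhibitory pair had the largest fitted changes. Smad7, which blocks TGF-beta and BMP receptors, was at 5.27 and 5.33 RPKM at D0, 16.4 and 13.6 at 4h, 2.39 and 2.93 at D2, and 7.05 and 9.31 at D7 in Vec and Cre. It rose at 4h by 1.61 ± 0.20 (SE, log2) and had fallen at D2 by 1.02 ± 0.20 (edgeR adjusted p = 0.00848 and 0.0141). Smad6, which mainly blocks BMP signalling, had 5.60 and 6.10 RPKM at D0, 12.8 and 14.0 at 4h, 3.70 and 6.54 at D2, and 11.8 and 12.4 at D7. Its 4h and D7 libraries did not overlap with those of D0 and D2. It rose by 1.30 ± 0.23 at 4h and by 1.16 ± 0.23 at D7 (edgeR adjusted p = 0.0169 and 0.0422). The D7 call was lost with a filter at 5 RPKM and when any library of D0, 4h or D7 was left out.

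Smad2, of the TGF-beta and activin branch, fell at 4h by 0.56 ± 0.12 (SE, log2; edgeR adjusted p = 0.0233), from 10.7 and 10.6 RPKM to 6.04 and 7.58. Smad1, of the BMP branch, fell at D2 by 0.60 ± 0.16 (edgeR adjusted p = 0.0342), from 12.1 and 11.8 RPKM to 8.11 and 7.95. Smad3 of the TGF-beta branch ran from 10.4 to 19.6 RPKM, and Smad5 of the BMP branch from 11.8 to 19.0. No change of Smad3, Smad4 or Smad5 with time passed the test.

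The Id genes encode helix-loop-helix proteins without a DNA-binding domain, which block partner transcription factors and are well-known direct targets of BMP signalling. All 4 rose at 4h and all 4 stood higher at D7. Id1 went from 9.02 RPKM in Vec and 11.6 in Cre at D0 to 76.1 and 78.6 at 4h, 42.6 and 36.3 at D2, and 39.3 and 33.9 at D7. All 6 induced libraries were above both D0 libraries. It rose by 3.00 ± 0.18 (SE, log2) at 4h, 1.91 ± 0.17 at D2 and 1.93 ± 0.17 at D7 (edgeR adjusted p = 0.00399, 0.0028 and 0.00741).

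Id3 stood at 56.6 and 59.0 RPKM at D0, 316 and 323 at 4h, 38.7 and 50.7 at D2, and 94.0 and 112 at D7. Unlike Id1, both D2 libraries lay under the D0 pair. The rise at 4h was 2.57 ± 0.16 (SE, log2; edgeR adjusted p = 0.00442), with Vec and Cre at 5.58 times (95% counting interval 5.23 to 5.95) and 5.47 times (5.11 to 5.85) their D0 values. Id2 went from 14.0 and 16.0 RPKM at D0 to 70.1 and 59.1 at 4h, 20.4 and 18.4 at D2, and 46.5 and 37.0 at D7. It rose by 2.20 ± 0.17 at 4h and by 1.57 ± 0.17 at D7 (edgeR adjusted p = 0.0063 and 0.00993).

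Id4 was the least abundant of the 4, at 2.54 and 3.30 RPKM at D0, 22.6 and 12.8 at 4h, 5.16 and 9.38 at D2, and 9.37 and 13.8 at D7. Vec 4h was its highest library. It rose by 2.77 ± 0.45 (SE, log2) at 4h and by 2.08 ± 0.44 at D7 (edgeR adjusted p = 0.0137 and 0.0467). The D7 call was lost with a filter at 5 RPKM and in limma on log2(RPKM + 5). That call was also lost when any library of D0, D2 or D7 was left out. At 4h the calls of Id1, Id2 and Id3 were lost only without Vec D0, and that of Id4 was lost when any of Vec D0, Vec 4h or Cre D0 was left out. Tgfbi, a matrix protein named for its induction by TGF-beta, had 77.2 and 74.4 RPKM at D0, 99.3 and 112 at 4h, 15.3 and 30.2 at D2, and 16.7 and 26.4 at D7. It stayed low at both late times, with changes of -1.83 ± 0.28 at D2 and -1.76 ± 0.28 at D7 (edgeR adjusted p = 0.00703 and 0.027), while the Id genes stood above D0 at D7.

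**Figure D3:**
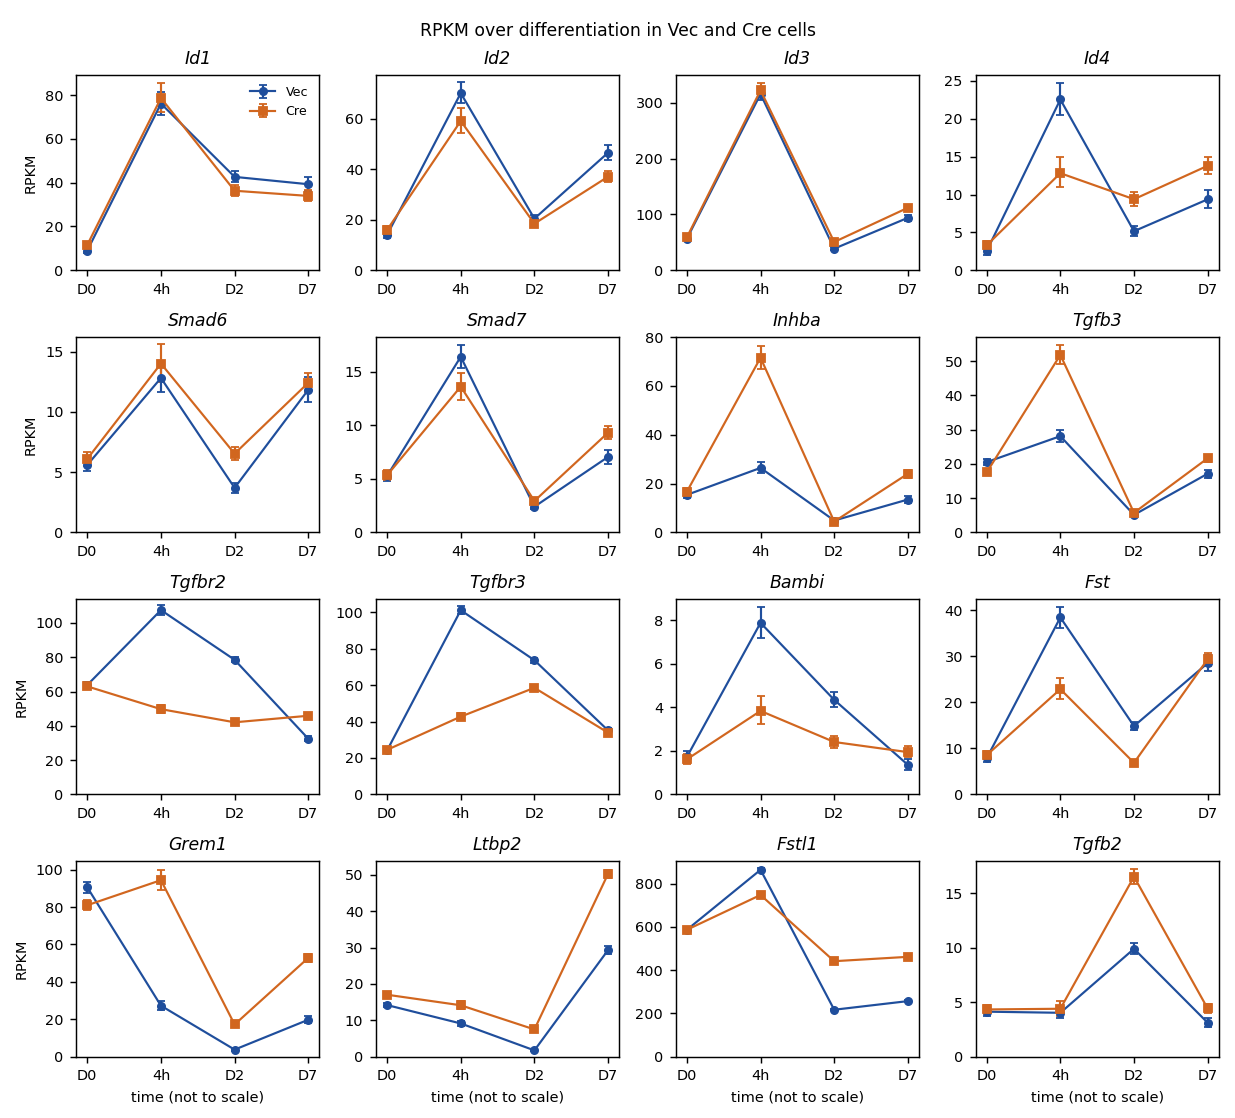
RPKM (vertical axes, from 0) of 16 genes at D0, 4h, D2 and D7 in Vec and Cre, 1 library per point, with 95% Poisson counting intervals as bars and times not to scale. Id1, Id2, Id3, Smad6 and Smad7 peak at 4h with Vec and Cre close together, whereas Inhba, Grem1, Tgfbr2 and Tgfbr3 separate at 4h.

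All 4 Id genes rose together at 4h. No promoter window was available for Id1, and the promoters of the other 3 Id genes are shown. Each is the 250 bases before the annotated start, read 5′ to 3′ on the gene's strand from RefSeq, build GRCm38.p6. Id2 lies at chr12:25096093-25096342 (minus strand), Id3 at chr4:136143572-136143821 (plus strand) and Id4 at chr13:48260866-48261115 (plus strand). Capitals mark matches on either strand to TGACG (a cAMP response element half-site, written CGTCA on the other strand), CAGAC (a Smad box, written GTCTG) or GGCGCC (a GC-rich Smad motif).
Id2: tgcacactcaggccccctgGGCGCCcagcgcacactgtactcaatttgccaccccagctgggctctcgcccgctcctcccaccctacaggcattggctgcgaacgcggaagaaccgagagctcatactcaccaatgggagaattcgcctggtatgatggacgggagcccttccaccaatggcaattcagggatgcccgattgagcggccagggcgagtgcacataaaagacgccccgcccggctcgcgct
Id3: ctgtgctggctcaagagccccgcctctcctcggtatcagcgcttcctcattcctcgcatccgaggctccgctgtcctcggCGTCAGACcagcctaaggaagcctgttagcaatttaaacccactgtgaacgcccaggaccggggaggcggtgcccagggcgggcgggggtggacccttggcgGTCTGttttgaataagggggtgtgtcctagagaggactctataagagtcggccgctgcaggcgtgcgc
Id4: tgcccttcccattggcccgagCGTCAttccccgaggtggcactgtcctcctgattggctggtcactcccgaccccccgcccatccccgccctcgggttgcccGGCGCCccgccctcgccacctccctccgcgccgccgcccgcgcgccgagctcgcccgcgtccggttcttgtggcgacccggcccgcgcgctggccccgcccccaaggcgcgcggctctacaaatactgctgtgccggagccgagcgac
In Id3 the CGTCA and CAGAC matches overlap at 170 and 167 bases before the start, and a further GTCTG match begins 68 bases before it. Id4 holds CGTCA at 229 and GGCGCC at 148 bases before the start, and Id2 holds GGCGCC at 231. Such letters are common: of 32851 windows of this length in the RefSeq table, 17.8% hold TGACG, 42.2% hold CAGAC and 9.59% hold GGCGCC. Of the 40 genes, 28 have a window in that table, and of these 6 hold TGACG, 14 hold CAGAC and 8 hold GGCGCC. The full cAMP response element TGACGTCA, present in 1.55% of windows, occurred in 1 of the 28, Ltbp1. The counts among the 28, here and below, are of genes with a match in any of their windows. The percentages are shares of single windows, so the 2 measures are not alike. A match describes the letters of the window only.

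Before induction the values in Vec and Cre were close. None of 36 genes counted at D0 (at least 1 RPKM in Vec or Cre) differed by 1 or more in log2(RPKM + 1), the size used here for calling a difference, against 0.433% of all genes. At D0, Cre minus Vec was widest upward in Id1 (0.33) and Id4 (0.28), and widest downward in Tgfb3 (-0.22). With 1 library per group these calls have no test, and the intervals given with ratios cover counting error only.

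At 4h, 2 of 36 genes were called higher and 2 lower in Cre, against 4.24% of all genes (1.65% higher, 2.59% lower). The higher genes were Inhba, whose Cre value was 2.71 times that of Vec (95% counting interval 2.42 to 3.03), and Grem1, at 3.47 times (3.13 to 3.85). The lower genes were both TGF-beta receptors: Vec stood 2.16 times above Cre in Tgfbr2 (2.05 to 2.28) and 2.37 times above it in Tgfbr3 (2.25 to 2.49). Some other receptors and antagonists came short of the size but were also below Vec in Cre, such as Bambi (-0.88), Fst (-0.72), Tgfbr1 (-0.60) and Acvr1b (-0.53, all Cre minus Vec in log2(RPKM + 1)). Tgfb3 (0.86), Bmpr1b (0.83, on 60 reads in Cre and 25 in Vec) and Acvr1 (0.77) were above it, also short of the size. The receptors Bmpr1a (0.29), Bmpr2 (0.27), Acvr2a (0.13) and Eng (0.12) were above Vec by less. Over all genes counted at 4h the median difference was 0.11, over the 36 it was 0.12, and the shallowest library, Cre 4h, is 1 of this pair. With a threshold of 0.5 in place of 1, 15 of the 36 were called at 4h, 7 higher and 8 lower. Of all 11897 genes counted, 1949 were called at that threshold.

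No Id gene reached the size of 1 between Vec and Cre at 4h. The Cre value was 1.03 times that of Vec in Id1 (95% counting interval 0.927 to 1.15). Id4 was the furthest apart, with Vec 1.76 times Cre (1.47 to 2.12).

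The 250 bases before the start of Inhba, Tgfbr2 and Grem1 are shown as a ligand, a receptor and an antagonist called different between Vec and Cre at 4h. They come from RefSeq, build GRCm38.p6: Inhba at chr13:16011601-16011850 (plus strand), Tgfbr2 at chr9:116175364-116175613 (minus strand) and Grem1 at chr2:113758649-113758898 (minus strand). Capitals mark the motifs searched in the Id promoters, on either strand.
Inhba: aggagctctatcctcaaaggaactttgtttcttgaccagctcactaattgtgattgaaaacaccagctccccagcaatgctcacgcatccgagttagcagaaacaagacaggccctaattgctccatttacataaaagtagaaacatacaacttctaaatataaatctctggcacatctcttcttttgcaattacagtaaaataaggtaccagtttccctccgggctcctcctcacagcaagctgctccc
Tgfbr2: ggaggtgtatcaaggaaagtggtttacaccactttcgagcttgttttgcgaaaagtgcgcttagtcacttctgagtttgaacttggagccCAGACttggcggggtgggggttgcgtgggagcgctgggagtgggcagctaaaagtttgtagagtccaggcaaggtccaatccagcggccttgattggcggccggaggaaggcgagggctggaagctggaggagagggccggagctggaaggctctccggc
Grem1: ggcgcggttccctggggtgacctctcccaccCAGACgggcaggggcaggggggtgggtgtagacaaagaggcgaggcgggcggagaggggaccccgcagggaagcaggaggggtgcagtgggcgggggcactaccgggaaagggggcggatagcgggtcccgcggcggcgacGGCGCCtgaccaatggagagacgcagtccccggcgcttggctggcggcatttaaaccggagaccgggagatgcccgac
Tgfbr2 holds CAGAC at 160 bases before the start, Grem1 holds CAGAC at 219 and GGCGCC at 78, and Inhba has no marked letters. The palindromic glucocorticoid response element, present in 0.00913% of all windows, was in none of the 28, and its half-site AGAACA, present in 16.1% of windows, was in 3 (Bmpr2, Fstl3 and Smad6). The Smad palindrome GTCTAGAC, in 0.167% of windows, was in none of the 28. A window without these letters says nothing of sites elsewhere.

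At D2, 3 of 33 genes counted were called higher and 1 lower in Cre, against 4.09% of all genes (2.55% higher, 1.54% lower). Cre was 4.64 times Vec in Grem1 (95% counting interval 3.93 to 5.50), 4.40 times in Ltbp2 (3.89 to 4.99) and 2.04 times in Fstl1 (2.00 to 2.07). Fst was the lower gene, with Vec 2.16 times Cre (1.93 to 2.43), and it was no longer called when RPKM was rescaled by TMM factors (-0.97, Cre minus Vec in log2). With a pseudocount of 5 neither Ltbp2 (0.90) nor Fst (-0.74) was called. Tgfbr2 (-0.88) and Bambi (-0.65) were below Vec as at 4h, while Tgfbi (0.94), Inhbb (0.85), Ltbp1 (0.79) and Smad3 (0.71) were above it without reaching the size. Grem1, Ltbp2, Tgfbi, Inhbb and Ltbp1 were also among the genes that fell from D0 to D2. The median difference was 0.28 over these genes and -0.04 over all genes. The preadipocyte and fibroblast marker sum was 623 in Vec and 1361 in Cre at the same time, and its part in the result was not tested.

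At D7, 2 of 36 genes were called higher and none lower in Cre, against 4.5% of all genes (1.39% higher, 3.12% lower). Cre was 2.68 times Vec in Grem1 (95% counting interval 2.43 to 2.96) and 5.62 times in Bmp4 (3.74 to 8.78), the latter on 238 and 26 reads and not called with a pseudocount of 5 (0.75). Smaller differences, most of them of one sign, were spread over the group. In all, 32 of 36 (88.9%) stood higher in Cre, against 53.5% of all genes counted, with a median difference of 0.32 against 0.03. The genes lower in Cre were Id2 (-0.32), Id1 (-0.21), Acvr1b (-0.09) and Tgfbr3 (-0.05, all Cre minus Vec in log2(RPKM + 1)). Ltbp1 was 1.94 times (1.80 to 2.09), Fstl1 1.80 times (1.76 to 1.83), Inhba 1.79 times (1.57 to 2.04) and Eng 1.65 times (1.52 to 1.80) as high in Cre. Tgfbr2, lower in Cre at 4h and D2, was 1.41 times as high in Cre as in Vec at D7 (1.35 to 1.48). At D7 the preadipocyte and fibroblast marker sum was 1704 in Vec and 3063 in Cre, the adipocyte sum 4828 and 1744, and the sum of 10 muscle markers 26.0 and 44.6. The part of these differences in the result was not tested.

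**Figure D4:**
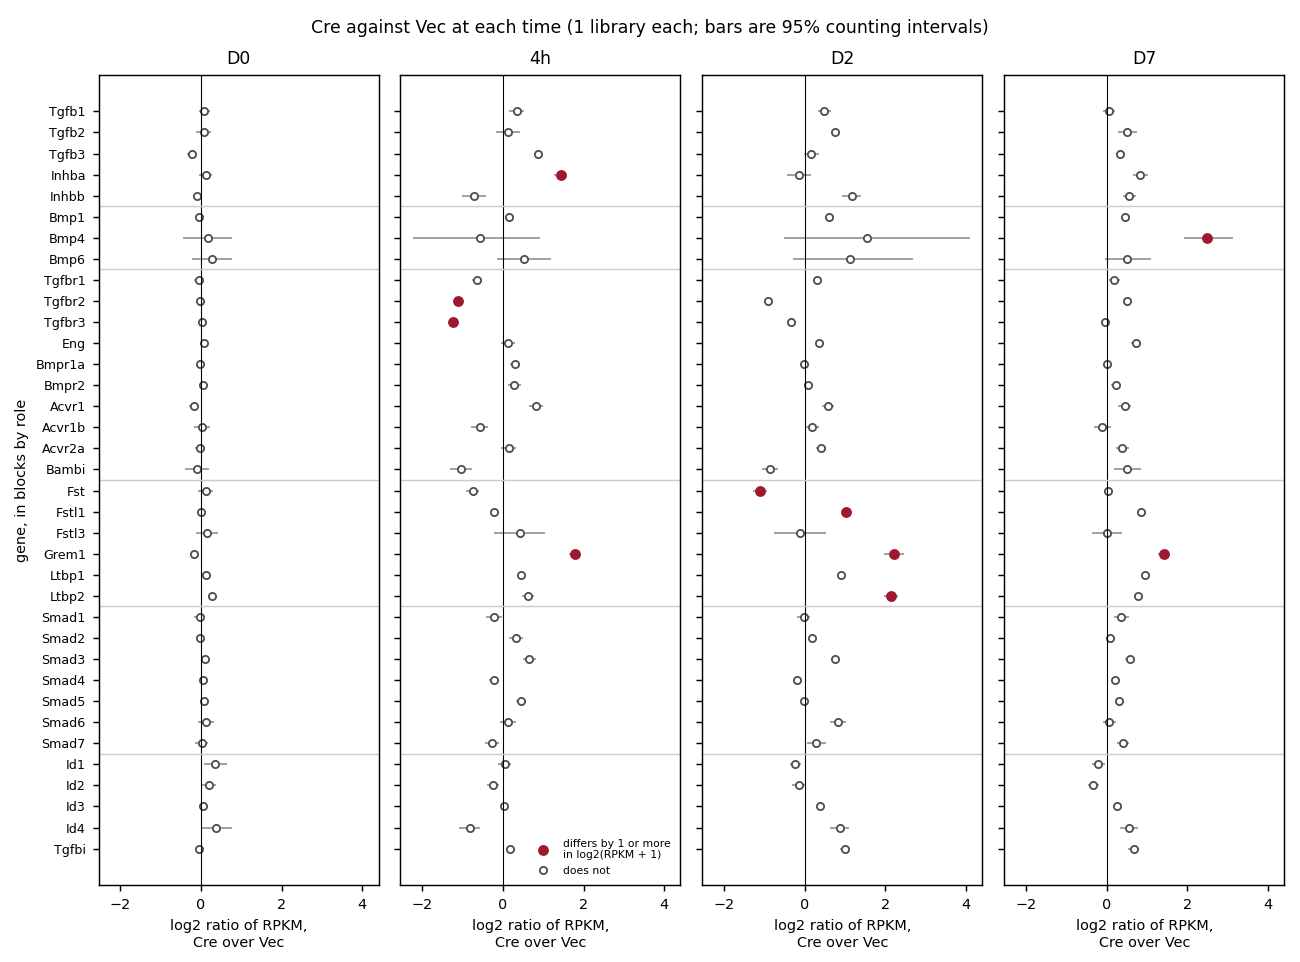
Log2 ratio of RPKM, Cre over Vec (horizontal axis), of the 36 fitted genes at each time, 1 library each, with 95% counting intervals as bars. Filled points differ by 1 or more in log2(RPKM + 1): no gene at D0, 4 genes at 4h, again 4 at D2, and 2 at D7, with Grem1 filled at all 3 induced times.

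Across the 4 times no gene of the 36 passed the test of Cre against Vec (edgeR, adjusted p under 0.05), and neither did any of the 12581 genes fitted (0%). At an unadjusted p under 0.05 there were 4 of the 36 and 1501 of all genes, DESeq2 called 19 genes, none of them among the 36, and limma called 0. When the genotype effect was fitted over the induced times alone, with the D0 libraries sharing 1 mean, 163 genes (1.3%; 0.715% higher and 0.58% lower) passed, 2 of the 36 among them, both higher. Grem1 was 1.75 ± 0.17 (SE, log2) higher in Cre (edgeR adjusted p = 0.0334), with Cre above Vec at 3 of 3 induced times. Smad3 was 0.62 ± 0.09 higher in Cre (edgeR adjusted p = 0.0491), also at 3 of 3, with 10.4 RPKM in Vec and 16.3 in Cre at 4h, 11.6 and 19.5 at D2, and 12.7 and 18.8 at D7. Ltbp1 (0.72 ± 0.14, edgeR adjusted p = 0.068) and Acvr1 (0.57 ± 0.10, edgeR adjusted p = 0.0574) came next and did not pass.

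Other genes of the pathway, 115 in lists by role of which 77 were fitted, gave the setting. The counts of each list below stand beside these shares of all 12581 genes fitted. At 4h 12.2% were higher and 13.1% lower, and at D2 17.7% were higher and 21% lower. At D7 against D0 the shares were 5.68% and 2.42%, and from D2 to D7 they were 15.4% and 8.93%. Of 20 TGF-beta target genes fitted, 3 rose and 3 fell at 4h, 1 rose and 10 fell at D2, and 10 rose and none fell from D2 to D7. Ccn2, the matrix-associated connective tissue growth factor, was at 39.5 and 40.01 RPKM at D0, 18.0 and 16.5 at 4h, 0.938 and 2.97 at D2, and 77.5 and 92.9 at D7 in Vec and Cre. Its D2 libraries were the lowest and its D7 libraries the highest. It fell by 4.44 ± 0.48 (SE, log2) at D2 and rose by 5.63 ± 0.50 from D2 to D7 (edgeR adjusted p = 0.00337 and 0.004355). The contractile genes Acta2 (smooth muscle actin), Tagln (transgelin) and Cnn1 (calponin) were also lowest at D2 and higher again at D7. Unlike Ccn2, they were not above D0 in both genotypes at D7. Tagln was at 179 RPKM in Vec and 157 in Cre at D0, and 173 and 230 at D7. Cnn1 was at 24.7 and 22.7 RPKM at D0, and 11.3 and 15.0 at D7. Acta2 was at 581 and 507 RPKM at D0, 243 and 304 at 4h, 19.2 and 47.3 at D2, and 323 and 457 at D7 in Vec and Cre. Its D2 libraries were far below all others, and it fell by 4.16 ± 0.40 (SE, log2; edgeR adjusted p = 0.00293) and rose by 3.73 ± 0.39 from D2 to D7 (edgeR adjusted p = 0.00518). At D2 Tagln fell by 4.13 ± 0.35 and Cnn1 fell by 4.20 ± 0.25 (edgeR adjusted p = 0.00249 and 0.0019). No TGF-beta target gene passed at D7 against D0. Junb and Snai1, transcription factor genes that respond early to TGF-beta, rose at 4h by 1.79 ± 0.23 and 1.66 ± 0.20 (edgeR adjusted p = 0.00891 and 0.00782). The 3 targets that fell at 4h were Cnn1 (-1.45 ± 0.22), Cdkn1a (-0.88 ± 0.17) and Cdkn2b (-0.76 ± 0.13), with edgeR adjusted p = 0.0124, 0.02015 and 0.01486. At 4h the list's counts were thus near the shares over all genes in both directions.

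Of 8 BMP target genes fitted, 3 rose and none fell at 4h, and 4 rose and 2 fell at D2. Atoh8, a helix-loop-helix factor, stood at 5.44 and 7.42 RPKM at D0, 27.8 and 27.5 at 4h, 17.0 and 13.5 at D2, and 14.8 and 16.6 at D7. Like Id1 it was above D0 in all 6 induced libraries, with a rise of 2.21 ± 0.20 (SE, log2) at 4h and 1.39 ± 0.19 at D7 (edgeR adjusted p = 0.00641 and 0.0194). Alpl, alkaline phosphatase, had 0.118 and 0.033 RPKM at D0, and 4.77 in Vec and 2.07 in Cre at D7. Hey1, a Notch and BMP target, had 0.116 and 0.169 RPKM at D0, and 1.45 in Vec and 2.27 in Cre at D2. Alpl reached 1 RPKM only at D7 and Hey1 only at D2, so they entered the model through the libraries where they were high, and their calls, which the list's counts include, are no support for a rise.

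Among 18 other antagonists, latency and activation genes fitted, 2 rose at 4h, 1 rose and 9 fell at D2, and 11 rose and 1 fell from D2 to D7. Bmper, a secreted regulator of BMPs, was the one that rose at D2: it had 2.32 and 2.17 RPKM at D0, 14.7 and 10.2 at 4h, 27.7 and 25.2 at D2, and 5.04 and 4.52 at D7. It rose by 2.56 ± 0.18 (SE, log2) at 4h and 3.53 ± 0.18 at D2 (edgeR adjusted p = 0.00499 and 0.0019). Chrdl1, a chordin-like BMP antagonist, went from 3.76 and 4.58 RPKM at D0 to 19.3 and 11.4 at 4h and to 25.7 and 24.9 at D7, with rises of 2.03 ± 0.46 and 2.71 ± 0.46 (edgeR adjusted p = 0.0277 and 0.0302). Thbs1, an activator of latent TGF-beta, rose by 3.52 ± 0.41 from D2 to D7 (edgeR adjusted p = 0.00654), from 19.4 and 46.9 RPKM to 287 and 391.

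Of 5 other receptors fitted, 1 fell at 4h, and 1 rose and 2 fell at D2. Acvr1c, the type I receptor ALK7 known from mature fat cells, was at 0.066 and 0.0414 RPKM at D0, 0.00904 and 0.0144 at 4h, 0.848 and 1.61 at D2, and 19.7 in Vec and 5.93 in Cre at D7. Both D7 libraries were above all others and the Vec library was the higher. Acvr1c entered the model only through Cre D2 and the D7 libraries, where it was high, so its call, which the counts include, is given as levels only. Of 7 other ligands fitted, 1 fell and none rose at 4h, and 2 rose and 2 fell at D2. The one that fell at 4h was Gdf15, a stress-induced ligand, by 2.33 ± 0.38 (edgeR adjusted p = 0.0137), from 15.7 and 14.5 RPKM to 1.505 and 4.67. Gdf5 reached 1 RPKM only at D7 (2.11 in Vec and 1.17 in Cre) and entered the model through those libraries. Any call of Gdf5 in the ligand counts is therefore no support for a rise. Of 19 Smad partners and inhibitors fitted, 3 rose and 1 fell at 4h, 4 rose and 6 fell at D2, and none passed at D7 against D0.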

How the data were processed

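RNA was measured in 8 libraries, 1 per genotype and time; the 22 ChIP samples were not analysed here. Per the file headers, each deposited table gives a read count and an RPKM value per RefSeq accession. The submitters' processing notes name CASAVA 1.8.2, SICER and mm9, with the RNA aligner and counter not given in the sources used here. Library totals (7.7 to 28.9 M reads) were recovered from count and RPKM. Of 29082 accessions, 28436 (97.8%) matched a symbol in a RefSeq table of GRCm38.p6, used for names and for promoter windows, and the accession with the most reads stood for each of 23109 genes. How reads shared by paralogs were placed is not given either.

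Time and genotype were tested as additive effects on the deposited counts of the 12581 genes that reached 1 RPKM in 2 or more libraries, by edgeR 4.0.16 (R 4.3.3) quasi-likelihood with TMM scaling and Benjamini-Hochberg adjustment over all genes at 0.05. The fit had 3 residual degrees of freedom, a median of 2.88 prior degrees of freedom and a common biological coefficient of variation of 0.176. SE values were derived from the F statistic. The code was tested on simulated data. Cre and Vec at 1 time were compared on the deposited RPKM by size, at least 1 in log2(RPKM + 1), for genes that reached 1 RPKM in either library. Ratios carry 95% Clopper-Pearson intervals on reads and levels exact Poisson intervals, which cover counting error only.

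All 40 genes were described, with Nr3c1 and, from 6 wider lists, at most the 6 largest passing changes in each direction per comparison. These genes and lists were chosen with earlier results of these data known. Alternatives were median-of-ratios scaling, filters of none and of 5 RPKM, DESeq2 1.42.0, limma 3.58.1 on log2(RPKM + 1) and log2(RPKM + 5), genotype over induced times, leaving out each library, and for sizes other pseudocounts, filter, scaling and threshold.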

Additional observations from a re-analysis of the deposited data

Results flagged for a closer look

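In 8 cases the Vec and Cre libraries moved in opposite directions from D0 with both 95% counting intervals of the ratio to D0 clear of 1. Opposite moves whose intervals include 1 are not listed. The share of all genes that meet this rule was not computed, so the number of cases cannot be read as a trait of these genes. Genes with many reads can meet it through small shifts, such as Smad4 at D2 (1.06 times D0 in Vec and 0.89 times in Cre). There is 1 library per genotype and time, and the difference was not tested in any of them. Each value is the Vec change minus the Cre change in log2(RPKM + 1). Grem1 at 4h gave -1.92, being lower than at D0 in Vec and higher in Cre. Tgfbr2 gave 1.08 at 4h and 0.87 at D2, higher than at D0 in Vec and lower in Cre both times. Fst at D2 gave 1.12, with Vec above and Cre below D0. Bmpr1b at 4h gave -1.0, on 25 reads in Vec and 60 in Cre. Acvr1 at 4h gave -0.94, with Vec below and Cre above D0. Tgfb3 at D7 gave -0.54, and Smad4 at D2 gave 0.24, the smallest of the 8. The D0 libraries are shared by these values.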

How the results depend on the processing

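Counts of genes past the threshold ranged, when each library was left out in turn, from 0 to 17 at 4h, 6 to 20 at D2, 0 to 7 at D7 and 7 to 18 from D2 to D7, and stayed at 0 for Cre against Vec over all times. A lone library of a time was then taken to vary like the others. For the comparisons of times, fewer of all genes passed too in most of these fits, so the ranges are not read as a trait of these genes. Fitting genotype over the induced times gave 2 genes in place of 0. For Cre against Vec by size, a threshold of 0.5 gave 15 genes at 4h, 15 at D2 and 10 at D7. Over all genes it gave 1949 of 11897, 2064 of 11918 and 2661 of 12480. A pseudocount of 5 gave 2 genes at D2 and 1 at D7, and over all genes 164 and 209. The cause was not tested. Median-of-ratios scaling changed no call among 180 results of single genes, no filter changed 2, DESeq2 added 8 and lost none, limma on log2(RPKM + 1) added 2 and lost 4, limma on log2(RPKM + 5) added 2 and lost 6, and a filter at 5 RPKM lost 3; no call was reversed under any of these. No paired analysis was possible because the labels of these libraries carry no replicate numbers to serve as a block; the additive model compares genotypes within times and times within genotypes. The floor of 3 reads and the low read numbers of Bmp2, Bmp7, Nog, Bmpr1b and Bmp4 limit what can be said of them.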
